A study of Mus musculus with 24 samples.

Results

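The response of macrophages lacking the DNA glycosylase TDG to Kdo2-lipid A (KLA) was described from 4 of the 24 libraries of the series. They came from bone marrow-derived macrophages (BMDMs) of TDG iKO mice, left unstimulated (0 h) or stimulated with KLA for 6 h, with 2 libraries at each time. The 6 h libraries were compared with the 0 h libraries, and libraries of the same replicate number were also compared as pairs. TDG iKO mice were of the C57BL/6 strain, 8 to 16 weeks old, and carried Tdg fl/fl together with CreERT2, a tamoxifen-activated Cre located at the Ndor1 locus. The paper describes them as also carrying an EGFP and mCherry reporter of Cre activity. Tamoxifen was given to Cre-carrying and control mice alike, so the WT BMDMs of the same cohort (4 libraries, 2 at each time) shared the drug, the strain and the stimulus. The labels do not say which of the floxed, Cre or reporter alleles the WT mice carried, nor whether the replicates came from separate mice. This Cre is not restricted to macrophages, and the loss of Tdg transcript in BMDMs was assessed in the study by qRT-PCR, which is not analysed here. The cells had been grown from whole marrow in L929-conditioned medium with added M-CSF, the growth factor of macrophages, and KLA was used at 10 ng/ml.

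KLA is the lipid A part of bacterial lipopolysaccharide together with its Kdo sugars, and a defined ligand of Toll-like receptor 4 (TLR4). TLR4 signals from the plasma membrane through the adaptor MyD88, which activates NF-kB and MAP kinases, and from endosomes through TRIF, which activates IRF3 and the type I interferon loop. In macrophages this turns on cytokines, chemokines and enzymes of prostaglandin, nitric oxide and itaconate synthesis, shifts metabolism towards glycolysis and slows the cell cycle. TDG removes thymine from mismatches with guanine, and the oxidised forms of 5-methylcytosine that TET enzymes make, as a step of base excision repair.

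Each library held between 8612504 and 19405606 counts assigned to genes, so that 3 counts equalled a share between 1.55e-05% and 3.48e-05%. All values below are normalised counts, the deposited read counts divided by a size factor for each library, and are given for replicate 1 and then replicate 2. The macrophage label was checked by its markers, whose summed counts were 249704 and 250841 at 0 h and 294767 and 284901 at 6 h, with the lysozyme gene Lyz2 alone between 138271 and 162660. Of the 11 markers tested, 1 (Cd14) passed the test below as higher at 6 h and 1 (Mertk) as lower. Each was 9.09% of the markers, beside 4.27% higher and 2.81% lower of all genes tested. Neutrophil and granule markers differed between the replicates rather than between the times, with 5935 in replicate 1 and 388 in replicate 2 at 0 h and 5799 and 403 at 6 h, and none of the 12 passed the test. T cell markers summed to between 1421 and 6490, of which Il7r made up 1301 to 6305, while the genes of the CD3 complex did not exceed 1.21. Tdg itself (chromosome 10, 82092573 to 82113544, mm9) had 0 raw counts in all 4 TDG iKO libraries and between 0 and 3 in the WT libraries. Tdg has near-identical copies elsewhere in the genome, and counting of this kind leaves out reads that align to several places. Exons of Glt8d2 on the opposite strand also overlap those of Tdg. The reason for the low Tdg counts was not tested, and the genotype label was left without a check in the counts. Among the 133 named genes with a position, exons of another gene overlapped those of 21, and as the strand setting of the counting is not stated, reads of such partners may not be told apart. These included Tdg, Il1a, Il1b, Cxcl10, Nfkb2, Irak3, Icam1, Fpr2, Irf1, Irf7, Jun, Ccnd1, Ch25h, Sgsh, Slc7a2, Slc16a3, St6gal1, Gpr155 and Shisa3.

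KLA changed 824 of the 11633 genes tested in TDG iKO BMDMs (7.08%). A gene counted as changed where the DESeq2 adjusted p was under 0.05. Of these, 497 (4.27%) were higher at 6 h and 327 (2.81%) were lower, with median log2 fold changes of 1.93 and −1.63 beside 0.000508 over all genes tested. Of these, 460 of the genes that rose and 295 of those that fell changed at least 2-fold, and 60 and 7 reached a log2 fold change of 4 or −4. Over all genes tested, 1783 changed at least 2-fold and 83 reached 4 or −4. With 2 libraries a group small changes seldom pass, so the size of the changes that passed, and the shares of counts below, are partly fixed by the choice. The genes that rose took 3.55% and 3.66% of all counts at 0 h and 10.5% and 12.2% at 6 h, while those that fell went from 3.93% and 4.05% to 1.54% and 1.2%. With 2 libraries a group, these p-values measure only the spread between these libraries, which may be technical. On simulated data DESeq2 called a larger share of unchanged genes than its threshold allows, so more of the 824 may be false calls than the threshold states.

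Both pairs moved the same way for every one of the 824 genes, a feature partly fixed by how they were chosen. The libraries of the 2 times did not overlap for 495 of the 497 genes that rose and for all 327 that fell, against 45.9% of all genes tested. The response was larger in pair 2 for 376 of the genes that rose and 283 of those that fell, beside 7147 of the 11633 genes tested. Median log2 changes were 1.67 in pair 1 and 2.06 in pair 2 for the genes that rose, and −1.39 and −1.82 for those that fell. Across the 11633 genes the changes of both pairs had a Pearson correlation of 0.776, given as a description because genes are not independent. With the replicate number as a block nested in genotype, 1312 genes passed (11.3%), with 737 higher (6.34%) and 575 lower (4.94%), and 816 of the 824 were among them. By edgeR's quasi-likelihood test 346 passed (3.11%), with 223 higher (2.01%) and 123 lower (1.11%), all of them within the 824. Leaving out a library gave 490 genes without 0 h replicate 1, 475 without 0 h replicate 2, 700 without 6 h replicate 1 and 376 without 6 h replicate 2. The genes on either side of the threshold were 1700025G04Rik (adjusted p 0.0498) and Mtmr7 (0.05), both chosen for their rank.

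**Figure D1:**
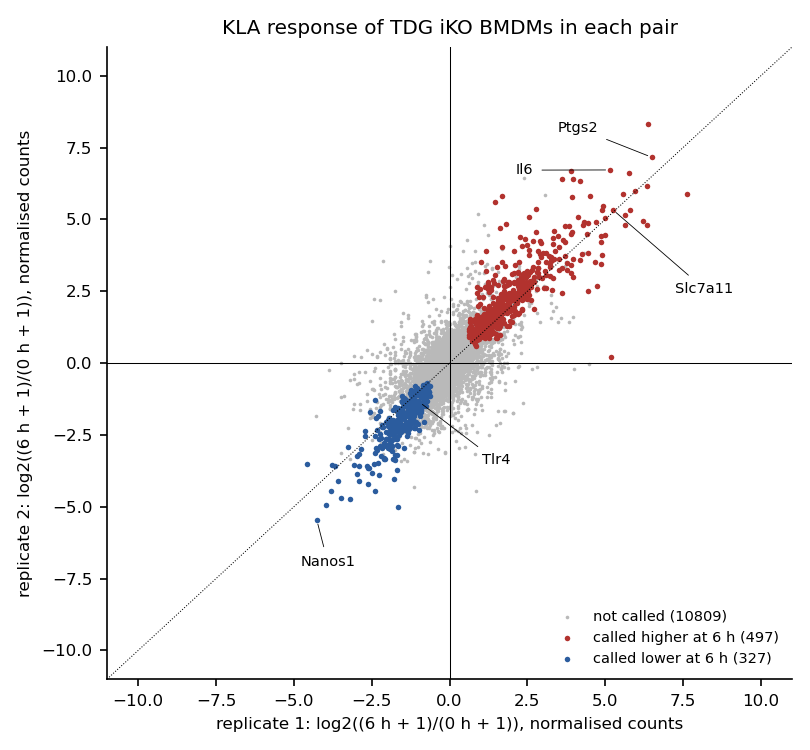
Log2 change from 0 h to 6 h of KLA in replicate pair 1 (x axis) and pair 2 (y axis) of TDG iKO BMDMs, on the scale of normalised count plus 1, with 1 point for each of the 11633 genes tested. All 497 genes that rose lie in the upper right and all 327 that fell in the lower left, and many lie farther from 0 in pair 2.

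Prostaglandin-endoperoxide synthase 2 (Ptgs2, chromosome 1, 151947254 to 151955140, mm9), the inducible enzyme at the entry of prostaglandin synthesis, was among the genes that rose most. It had 20.2 and 23.1 normalised counts at 0 h and 1904 and 3458 at 6 h, a 124-fold rise (log2 fold change 6.94, SE 0.41, DESeq2 adjusted p 1.44e-61). Both stimulated libraries lay far above both unstimulated ones, and the pairs changed by 6.49 and 7.16. Edn1, which encodes the vasoconstrictor peptide endothelin-1, went from 3.67 and 5.91 to 253 and 679 (log2 fold change 6.56, SE 0.68). Il6 (chromosome 5, 30339701 to 30346508), a cytokine of the acute phase response, went from 4.59 and 2.69 to 197 and 388 (6.39, SE 0.69). The neutrophil-attracting chemokine gene Cxcl3 rose from 0.917 and 17.2 to 375 and 1078 (6.25, SE 0.76). None of these 4 genes had overlapping libraries, which the rule for the 12 largest increases required. Their DESeq2 adjusted p lay between 1.44e-61 and 5.26e-18 for Ptgs2, Edn1 and Il6 and was 4.53e-14 for Cxcl3.

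A further pair of genes was close to absent before stimulation. Shisa3, which encodes an inhibitor of Wnt and FGF receptor maturation, had 0 counts in both 0 h libraries and 82.6 and 322 normalised counts at 6 h, at least 199-fold higher when 3 counts over the group set the limit at 0 h. Its adjusted p was 0.000228, and 0.118 without 6 h replicate 2. Itgb8, the integrin subunit that activates latent TGF-beta, had 0 and 1.08 normalised counts at 0 h, which were 2 raw counts in all, and 80.2 and 148 at 6 h. The ratio of its summed raw counts, scaled by the summed size factors of the libraries at each time, was 179 (95% counting interval 49.1 to 1487). Mycl1 (log2 fold change 5.77), the Wnt receptor gene Fzd1 (5.74) and the procollagen-processing protease gene Bmp1 (5.46) also rose, each from at most 3.67 normalised counts at 0 h. Counts this low at 0 h make the size of these rises less certain than their direction.

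**Figure D2:**
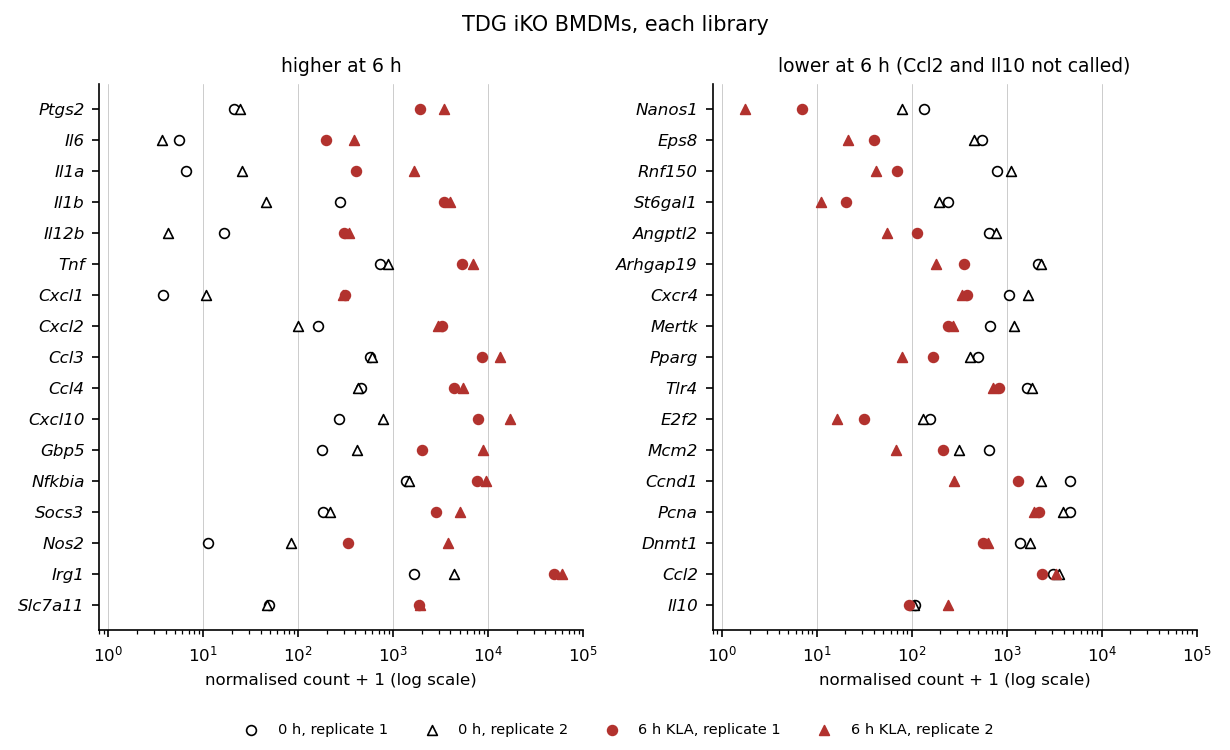
Normalised counts plus 1 (log axis) of genes that rose (left) and genes that fell (right, with Ccl2 and Il10, which did not pass), with 1 point for each of the 4 TDG iKO libraries, colour for time and marker shape for replicate. The stimulated and unstimulated libraries are apart for every gene shown except Ccl2 and Il10, by 20.2 and 23.1 against 1904 and 3458 for Ptgs2 and by 135 and 77.4 against 6.07 and 0.773 for Nanos1.

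The receptor complex and its first signalling steps moved in both directions. Among 33 tested genes of the TLR4 receptor, adaptors and kinases, 8 rose and 2 fell, with a median log2 fold change of 0.34, beside 4.27% and 2.81% of all genes tested. The same shares of all genes tested stand beside the counts of each list below. Cd14, the co-receptor that hands lipid A to TLR4, went from 2612 and 1489.6 to 16282 and 14098 (log2 fold change 2.89, SE 0.33, DESeq2 adjusted p 7.72e-16). Tlr2, the receptor for bacterial lipopeptides, went from 1015 and 909 to 6561 and 6775 (2.79, SE 0.29), and Irak3, the kinase homologue that restrains MyD88 signalling, from 969 and 943 to 5213 and 5312 (2.46, SE 0.28). For each of these the times were well apart, and the replicates lay close together for Tlr2 and Irak3 but less so for Cd14 at 0 h. Tlr4 (chromosome 4, 66488618 to 66591318) had 1618 and 1842 at 0 h and 820.0 and 722 at 6 h. Its log2 fold change was −1.17 (SE 0.39) with an adjusted p of 0.0453, close to the threshold. Without any 1 of the 4 libraries that p lay between 0.135 and 0.407, and by edgeR it was 0.173. Tlr13, a receptor for bacterial ribosomal RNA, fell by 1.41 on the log2 scale (adjusted p 0.00215), and its p was 0.0619 and 0.0612 without the 0 h libraries of replicates 1 and 2 and 0.139 without 6 h replicate 2. Without 6 h replicate 2, 5 genes of the list were higher and 0 lower.

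Inhibitors and subunits of NF-kB rose without exception among the members that passed. Of the 24 members, 12 rose (50%, beside 4.27% of all genes tested) and 0 fell, and the median log2 fold change was 1.15. A positive change was found in 23, and the libraries of the 2 times did not overlap in 23. Over all 11633 genes tested, 5822 had a positive and 5811 a negative change, and 45.9% had no overlap. Nfkbia, which encodes the inhibitor IκBα that holds NF-kB in the cytoplasm, went from 1363 and 1478 to 7669 and 9464 (log2 fold change 2.59, SE 0.43, DESeq2 adjusted p 1.12e-07). Nfkbiz, the nuclear cofactor needed for secondary targets such as Il6, went from 709 and 490.3 to 2926 and 2886 (2.28, SE 0.31), and the deubiquitinase gene Tnfaip3 from 971 and 1348 to 4168 and 6220.4 (2.16, SE 0.39). Neither replicate of these 3 genes crossed the range of the other time. Nfkbie, another inhibitor, rose by 2.45 and Nfkb2, the precursor of p52, by 2.43. Nfkb2 had an adjusted p of 0.000256, and of 0.117 without 6 h replicate 2. The count of 12 was 14 with the replicate block, 4 by edgeR, 8 without 0 h replicate 1 and 5 without 6 h replicate 2.

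The promoters of 5 genes that rose are shown because NF-kB and interferon-activated factors are the textbook routes from TLR4 to the genome. Each of the 5 holds the letters marked in it, so they are examples and do not stand for all genes that rose. Each is the 250 bases before the gene's start in RefSeq (GRCm38.p6), read 5′ to 3′ on the gene's strand. Capitals in the first 3 mark runs that match GGG followed by any 5 bases and CC, the letters searched for NF-kB, and capitals in the last 2 mark GAAA, any 2 bases and GAAA, those searched for the interferon-stimulated response element (ISRE), on either strand and with overlapping matches joined.
Il6, chr5:30012864-30013113, plus strand: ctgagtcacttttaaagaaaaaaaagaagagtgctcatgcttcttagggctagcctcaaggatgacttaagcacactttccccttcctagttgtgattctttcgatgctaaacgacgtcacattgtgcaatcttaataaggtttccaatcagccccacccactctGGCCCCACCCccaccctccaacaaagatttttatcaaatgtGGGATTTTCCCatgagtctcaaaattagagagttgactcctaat
Cxcl1, chr5:90890995-90891244, plus strand: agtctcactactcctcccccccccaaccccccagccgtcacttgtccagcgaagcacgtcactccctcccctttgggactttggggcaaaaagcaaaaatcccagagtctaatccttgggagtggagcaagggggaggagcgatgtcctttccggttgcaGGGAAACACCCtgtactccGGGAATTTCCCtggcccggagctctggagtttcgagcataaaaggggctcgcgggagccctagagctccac
Nfkbia, chr12:55492648-55492897, minus strand: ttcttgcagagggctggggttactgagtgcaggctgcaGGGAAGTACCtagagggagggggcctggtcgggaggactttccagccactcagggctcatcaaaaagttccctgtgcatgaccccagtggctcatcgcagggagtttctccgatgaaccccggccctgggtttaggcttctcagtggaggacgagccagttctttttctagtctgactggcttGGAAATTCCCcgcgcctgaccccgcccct
Gbp5, chr3:142496684-142496933, plus strand: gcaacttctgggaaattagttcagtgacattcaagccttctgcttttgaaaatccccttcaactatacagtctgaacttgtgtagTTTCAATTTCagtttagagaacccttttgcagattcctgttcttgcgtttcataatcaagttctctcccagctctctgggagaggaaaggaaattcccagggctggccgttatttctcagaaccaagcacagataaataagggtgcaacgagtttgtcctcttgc
Ifi205, chr1:174031756-174032005, minus strand: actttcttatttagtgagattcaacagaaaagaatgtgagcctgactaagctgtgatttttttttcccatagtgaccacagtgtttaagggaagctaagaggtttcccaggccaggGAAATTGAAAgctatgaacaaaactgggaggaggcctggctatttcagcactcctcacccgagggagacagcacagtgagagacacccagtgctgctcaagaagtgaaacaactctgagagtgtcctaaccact
Il6, Cxcl1 and Nfkbia each held 2 such runs. Over windows of 300 bases, which add 50 bases after the start, the NF-kB letters occurred in 292 of 381 genes that rose (76.6%), in 184 of 243 that fell (75.7%), in 6251 of 8719 tested genes with a window (71.7%) and in 50.8% of all 32851 windows. The NF-kB letters were thus almost as frequent in genes that fell as in genes that rose. Among the largest increases with a window, Itgb8, Edn1, Il1a and Fzd1 had no match to them. Shisa3, Ptgs2, Il6, Cxcl3, Cxcl1 and Ptges had at least 1. Gbp5, marked above for ISRE letters only, also held 1 match to the NF-kB letters. ISRE letters occurred in 23 of 381 genes that rose (6.04%), 3 of 243 that fell (1.23%), 3.95% of tested genes and 3.44% of all windows, and in 23 of the 39 interferon-stimulated genes with a window (59%). TGANTCA, the letters searched for AP-1, occurred in 10.5% of genes that rose, 12.8% of those that fell, 6.42% of tested genes and 7.81% of all windows. A match is a description of the letters, not of binding.

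Several cytokine genes rose steeply, while others did not pass. Of 23 tested interleukins and growth factors, 9 rose and 0 fell, with a median log2 fold change of 1.31. Il1a went from 5.5 and 24.7 to 399.7 and 1645 (log2 fold change 6.04, SE 0.76, DESeq2 adjusted p 5.09e-13). Il1b (chromosome 2, 129190306 to 129196875), the fever cytokine that inflammasomes process, went from 275 and 45.2 to 3409 and 3914 (4.52, SE 0.61). At 0 h replicate 1 stood well above replicate 2, so that its pairs changed by 3.63 and 6.41. Il12b, the shared subunit of IL-12 and IL-23, went from 15.6 and 3.23 to 300.1 and 341 (5.15, SE 0.76, adjusted p 1.36e-09), with an adjusted p of 0.109 without 6 h replicate 1 and 0.216 without 6 h replicate 2. Il10, the main anti-inflammatory cytokine gene of macrophages, had 108 and 105 at 0 h and 93.5 and 239.6 at 6 h, and its libraries overlapped (0.65, adjusted p 0.834). Ifnb1, which encodes interferon beta, had 13.8 and 43.5 against 34 and 91.2 and also overlapped (1.12, adjusted p 0.834).

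TNF family members moved in both directions, with 8 of 25 higher and 2 lower and a median of 0.16. Tnf went from 719 and 877 to 5324 and 6991 (log2 fold change 2.95, SE 0.27, DESeq2 adjusted p 2.8e-24), and its pairs changed by 2.89 and 2.99. Cd40, the receptor through which T cells activate macrophages, went from 108 and 137 to 1129 and 3305 (4.18, SE 0.54), and the death receptor gene Fas from 82.6 and 65 to 779 and 706 (3.34, SE 0.31). The 0 h and 6 h ranges of all 3 were apart. The decoy receptor genes Tnfrsf26 and Tnfrsf23 fell by 2.07 and 1.59 on the log2 scale. Tnfrsf23 had an adjusted p of 0.000941, which became 0.148 without 0 h replicate 2 and 0.0737 without 6 h replicate 2. The 8 that rose became 5 without 6 h replicate 2.

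Chemokine genes differed widely in their change. Of 12 CC chemokines 4 rose and of 10 CXC chemokines 5 rose, none fell, and the medians were 0.87 and 2.19. Ccl3 and Ccl4, attractants of monocytes and T cells, went from 572 and 591 to 8651 and 13361 (log2 fold change 4.24, SE 0.30, DESeq2 adjusted p 1.17e-41) and from 453 and 423 to 4366 and 5419.8 (3.48, SE 0.28). The neutrophil attractants Cxcl1 and Cxcl2 went from 2.75 and 9.68 to 306 and 298 (5.53, SE 0.72) and from 161 and 98.9 to 3219 and 2986 (4.58, SE 0.48). Cxcl10, a T cell attractant driven by interferon, went from 266 and 779 to 7806 and 16752 (4.55, SE 0.66). In all 5 the lowest stimulated library exceeded the highest unstimulated one. Ccl22, a ligand of CCR4, rose by 2.70. Ccl2, the monocyte attractant, was abundant already at 0 h (3068 and 3587) and had 2342 and 3305 at 6 h (−0.24, adjusted p 0.947). Ccl5 showed how far the replicates could stand apart, with 3813 and 12412 at 0 h and 7263 and 33627 at 6 h. It was higher at 6 h within each pair, by 0.93 and 1.44, but replicate 1 at 6 h lay below replicate 2 at 0 h. Its adjusted p was 0.89 without and 0.00203 with the replicate block in DESeq2, and 0.0526 with the block in edgeR.

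Receptors for chemotactic signals moved in both directions. Of 15 tested, 3 rose and 3 fell, with a median of −0.35. Fpr1, the receptor for bacterial formyl peptides, went from 858 and 755 to 8768 and 9286 (log2 fold change 3.49, SE 0.24, DESeq2 adjusted p 5.05e-43). Its relative Fpr2 rose by 2.91 and Ccrl2, which presents the adipokine chemerin, rose by 4.01. Cxcr4, the receptor that retains leukocytes in bone marrow, went from 1061 and 1658 to 377 and 339 (−1.93, SE 0.34, adjusted p 1.24e-06). Ccr2 and Ccr1, which bring monocytes to tissue, fell by 1.45 and 1.17 on the log2 scale. Their adjusted p of 0.028 and 0.0173 did not pass without single libraries, with p of 0.633 and 0.498 for Ccr2 without 0 h replicate 1 and 6 h replicate 2, and between 0.195 and 0.252 for Ccr1 without any 1 of the 4.

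**Figure D3:**
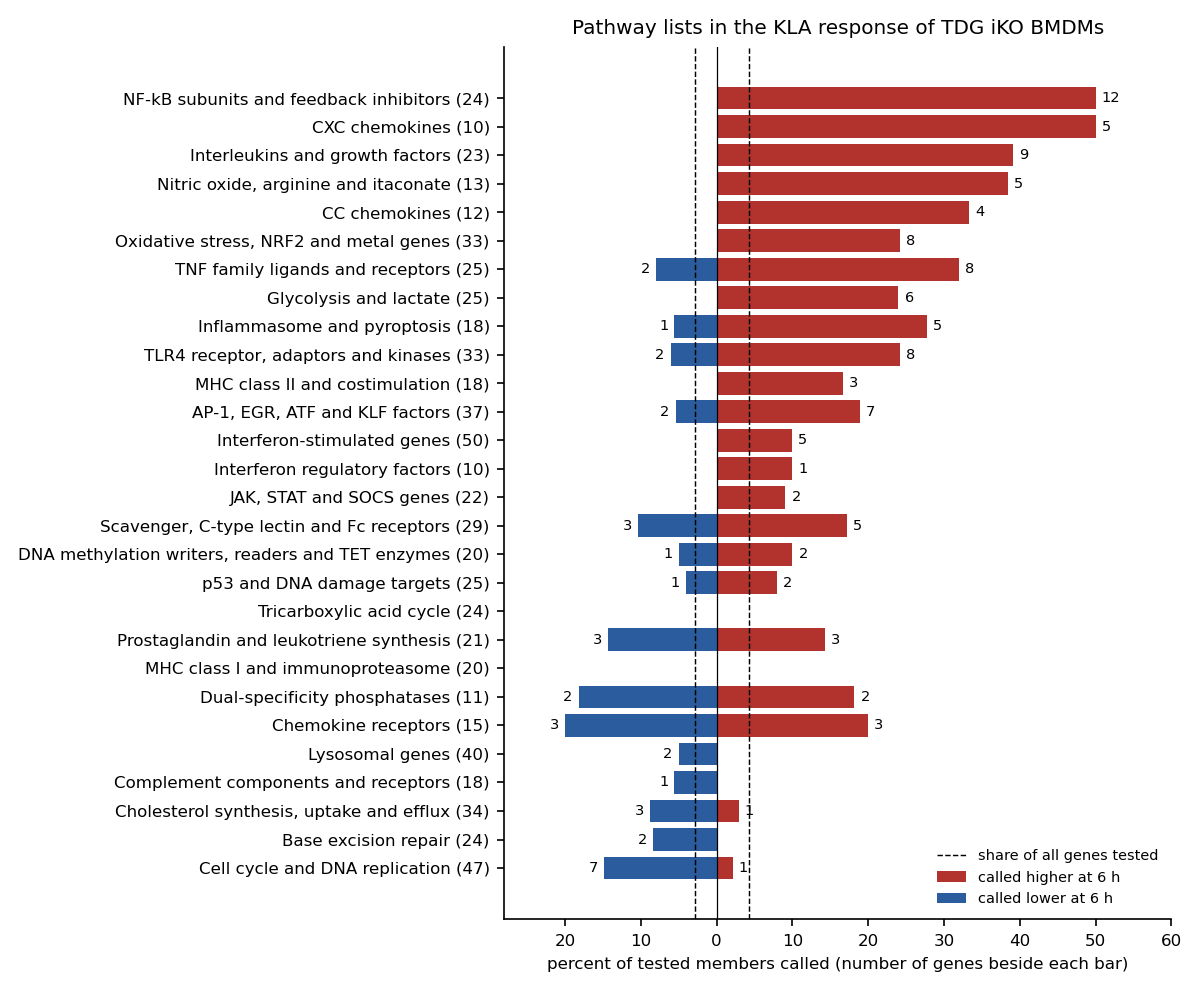
Percent of the tested members of each pathway list that rose (right) or fell (left) after 6 h of KLA in TDG iKO BMDMs, with dashed lines at the shares of all genes tested, 4.27% higher and 2.81% lower. NF-kB genes rose in 12 of 24, and no tricarboxylic acid cycle gene passed in either direction.

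Interferon-stimulated genes all had higher mean levels at 6 h, while few passed the test. Of the 50 members tested, 5 rose and 0 fell, but all 50 had a positive log2 fold change, with a median of 0.82 (0.63 in pair 1 and 0.92 in pair 2). Both pairs had the same sign in 47 of the 50, beside 9086 of all 11633 genes tested. The libraries of the 2 times did not overlap in 27 (54%), beside 45.9% of all genes tested. The 5 were Gbp5, Ifi205, Gbp3, Cd274 and Oasl1, of which Cd274 (2.26) and Oasl1 (1.71) were named after their values were seen. Gbp5 (chromosome 3, 142159864 to 142185308, mm9), a guanylate-binding protein of antibacterial defence, went from 178 and 409.6 to 1986 and 8851 (4.20, SE 0.69, DESeq2 adjusted p 1.08e-07). Ifi205 (chromosome 1, 175942129 to 175961886), of the DNA-sensing AIM2-like family, whose close paralogues can split reads, went from 497 and 1277 to 5018 and 10051 (3.09, SE 0.56). Both have the ISRE letters in the promoters printed above, and replicate 2 was the higher library of each at both times. Ifit1, an inhibitor of viral RNA translation, had 3495 and 8087 at 0 h and 10453 and 25773 at 6 h (1.65, SE 0.63, adjusted p 0.1).

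The replicates themselves differed in these genes. All 50 were higher in replicate 2 than in replicate 1 at both times, beside 4331 of the 11633 genes tested. Their summed counts were 128406 and 207125 at 0 h and 214828 and 452658 at 6 h, so that replicate 1 at 6 h barely exceeded replicate 2 at 0 h. Neutrophil and granule markers differed between the replicates in the opposite sense (5935 and 388 at 0 h), and their part in this was not tested. With the replicate block 28 of the 50 rose (DESeq2), and 17 with the block in edgeR, beside 5 without the block and 1 by edgeR without it. The 5 became 2 without 0 h replicate 1, 11 without 0 h replicate 2, 16 without 6 h replicate 1 and 2 without 6 h replicate 2. Gbp3 had an adjusted p of 0.00567, which became 0.191 without 0 h replicate 1 and 0.691 without 6 h replicate 2. WT BMDMs of the cohort had a median of 1.03 over the same genes.

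Of the transcription factors and feedback genes downstream of interferon and cytokine receptors, 1 of 10 interferon regulatory factors and 2 of 22 JAK, STAT and SOCS genes rose, and none fell. The shares that rose were 10% and 9.09%, beside 4.27% of all genes tested, and rest on few genes. The factor that rose was Irf1 (log2 fold change 1.23, DESeq2 adjusted p 0.0238). Its p was 0.293 and 0.142 without the 0 h libraries of replicates 1 and 2 and 0.716 without 6 h replicate 2. Irf7, the factor that amplifies interferon production, had 12505 and 19579 at 0 h and 13054 and 24434 at 6 h, with overlapping libraries (0.22, adjusted p 0.995). Socs3 (chromosome 11, 117827393 to 117831361, mm9), which shuts off IL-6 receptor signalling, went from 183 and 213 to 2817 and 5026 (4.31, SE 0.36, adjusted p 1.96e-30). The kinase gene Jak2 rose by 2.62, with no overlap between the times.

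Early-response factors and phosphatases moved both ways. Of 37 AP-1, EGR, ATF and KLF factors, 7 rose and 2 fell, and of 11 dual-specificity phosphatases, which switch off MAP kinases, 2 rose and 2 fell. Maff rose by 3.20 on the log2 scale and Cebpd, a factor that sustains Il6 transcription, by 2.42. Batf, an AP-1 partner in immune cells, went from 80.7 and 86 to 237 and 573 (2.28, SE 0.54, DESeq2 adjusted p 0.000667), with an adjusted p of 0.21 without 6 h replicate 2. Jun went from 1562 and 2534 to 796 and 767 (−1.39, adjusted p 0.000392, and 0.0867 without 0 h replicate 2). Cebpa, a factor of myeloid identity, fell by 1.59, with an adjusted p of 0.191 without 0 h replicate 2 and 0.0634 without 6 h replicate 1. Dusp2 and Dusp16 rose by 2.62 and 2.50, while Dusp3 and Dusp7 fell by 1.29 and 1.31. The adjusted p of Dusp7 was 0.209 without 0 h replicate 2 and 0.0995 without 6 h replicate 1. The 7 factors that rose became 3 without 0 h replicate 1, 5 without 0 h replicate 2 and 3 without 6 h replicate 2.

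Several effector genes of activated macrophages rose. In the list of inflammasome and pyroptosis genes, 5 of 18 rose and 1 fell. Nlrp3 (chromosome 11, 59355070 to 59380458, mm9), the sensor whose own induction primes the inflammasome, went from 322 and 283 to 3406 and 4233 (log2 fold change 3.66, SE 0.32, DESeq2 adjusted p 2.61e-27). Mefv, which encodes pyrin, rose by 2.42 and Casp4, the mouse caspase-11 that binds lipid A in the cytosol, by 2.06, while the sensor gene Nlrp1b fell by 2.37. Casp4 had an adjusted p of 0.0604 without 0 h replicate 1 and 0.109 without 6 h replicate 2, and Nlrp1b one of 0.422 without 0 h replicate 2 and 0.231 without 6 h replicate 2. The list had 2 higher members without 0 h replicate 1 and 2 without 6 h replicate 2.

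In prostaglandin and leukotriene synthesis 3 of 21 rose and 3 fell. Besides Ptgs2, Ptges, the synthase that turns the product of Ptgs2 into prostaglandin E2, went from 90.8 and 216 to 5096 and 8646 (log2 fold change 5.48, SE 0.54, DESeq2 adjusted p 5.47e-21), and the prostacyclin receptor gene Ptgir rose by 1.22. The 3 that fell were Hpgds of prostaglandin D2 synthesis (−1.01), Tbxas1 of thromboxane synthesis (−0.91) and the lysosomal phospholipase gene Pla2g15 (−1.48). No fall of these 3 passed without 0 h replicate 1 (adjusted p 0.0542, 0.378 and 0.167) or without 6 h replicate 2 (0.0718, 0.513 and 0.191), those of Hpgds and Tbxas1 did not without 0 h replicate 2 (0.0808 and 0.167) or 6 h replicate 1 (0.0629 and 0.0543), and the rise of Ptgir did not without 0 h replicate 2 (0.238), 6 h replicate 1 (0.083) or 6 h replicate 2 (0.169).

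For nitric oxide, arginine and itaconate, 5 of 13 genes rose and 0 fell. Irg1 (chromosome 14, 103446194 to 103455790, mm9), the enzyme that makes the antibacterial metabolite itaconate, was among the most abundant, going from 1647 and 4370.0 to 48678 and 59744 (log2 fold change 4.17, SE 0.47, DESeq2 adjusted p 2.08e-16). Slc7a2, the arginine transporter that feeds nitric oxide synthase, went from 100 and 219.9 to 3038 and 8866 (5.21, SE 0.57). Nos2 (chromosome 11, 78734289 to 78773756), the inducible nitric oxide synthase, went from 10.1 and 82.8 to 337 and 3746. Replicate 2 was the higher library at both times, and the pairs changed by 4.93 and 5.48 although the replicates differed so much. The log2 fold change of Nos2 was 5.45 (SE 1.54, adjusted p 0.00803), with an adjusted p of 2.97e-40 with the replicate block, 0.155 without 0 h replicate 1, 0.741 without 6 h replicate 2 and 0.125 by edgeR. Arg1, the arginase of alternatively activated macrophages, stayed low at 38.5 and 36 against 43.7 and 17.8 (−0.30, adjusted p 0.995). The list had 3 higher members without 0 h replicate 1 and 2 without 6 h replicate 2.

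Of 25 genes of glycolysis and lactate 6 rose and 0 fell (median log2 fold change 0.35), whereas of 24 genes of the tricarboxylic acid cycle 0 rose and 0 fell (median −0.02), beside 4.27% higher and 2.81% lower over all genes tested. The difference between the lists was not tested. No cycle gene passed with edgeR either, 1 was lower with the replicate block, and 1 was higher and 1 lower in the fit of all 16 BMDM libraries. Slc2a6, a hexose transporter of inflammatory macrophages, went from 152 and 224 to 1181 and 4044 (3.80, SE 0.60, DESeq2 adjusted p 3.35e-08), the phosphofructokinase gene Pfkl from 606 and 383 to 1585 and 1624 (1.70, SE 0.31), and the lactate exporter gene Slc16a3 from 656 and 507 to 2020.2 and 1691 (1.67, SE 0.28). In contrast, Sdha, of succinate dehydrogenase, had 3240 and 2756 at 0 h and 3083 and 2609 at 6 h (−0.07, adjusted p 0.995), and citrate synthase (Cs) had a log2 fold change of 0.16 (0.995). Without 0 h replicate 2 the 6 glycolysis genes became 3, and with edgeR 3.

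Antioxidant and metal genes that passed were all higher at 6 h. Of 33 genes of oxidative stress, NRF2 and metal handling 8 rose and 0 fell (median log2 fold change 0.50). Slc7a11 (chromosome 3, 50168858 to 50247535, mm9), the cystine importer that feeds glutathione synthesis, went from 47.7 and 46.2 to 1847 and 1905 (5.32, SE 0.30), the smallest DESeq2 adjusted p among the genes named here (4.82e-68). Its replicates lay close together, and the pairs changed by 5.25 and 5.33. Sod2, the mitochondrial superoxide dismutase, went from 1368 and 2117 to 15592 and 19818 (3.34, SE 0.40), and Cybb, the catalytic subunit of the phagocyte NADPH oxidase, from 7071 and 8037 to 30514 and 38214 (2.19, SE 0.27). The 8 became 5 without 0 h replicate 2, 5 without 6 h replicate 2 and 5 by edgeR.

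**Figure D4:**
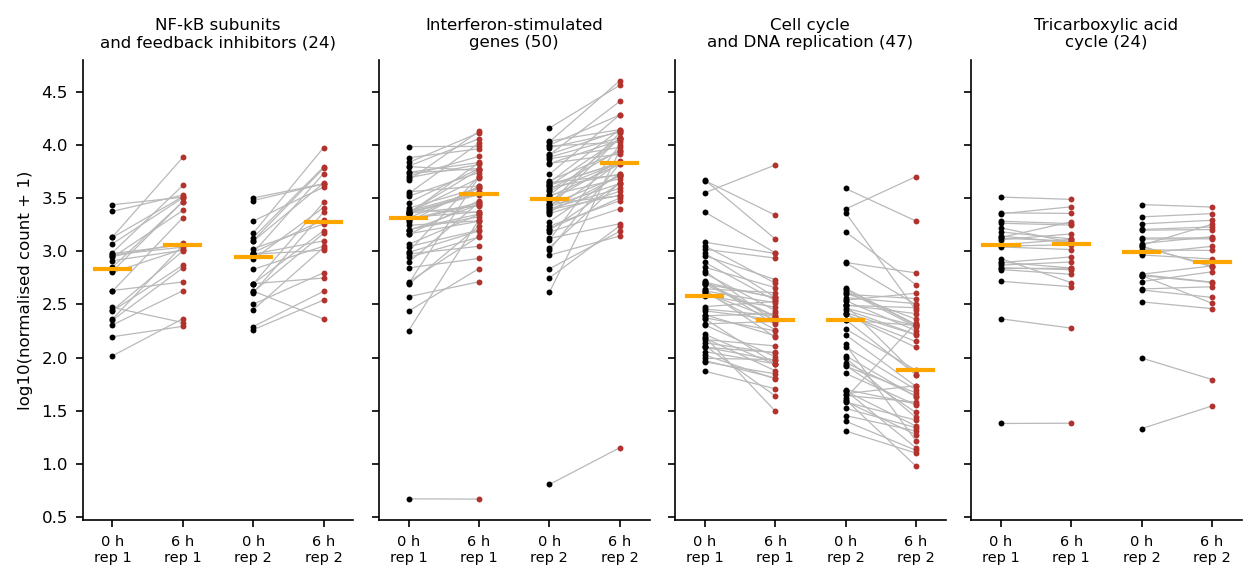
Level of each tested member (black points at 0 h and red points at 6 h, joined by grey lines within a replicate, log10 of normalised count plus 1) in the 4 TDG iKO libraries for NF-kB genes (24), interferon-stimulated genes (50), cell cycle and replication genes (47) and tricarboxylic acid cycle genes (24), with an orange bar at each library's median. Interferon-stimulated genes were higher in replicate 2 at both times, cell cycle genes lower in replicate 2, and tricarboxylic acid cycle genes had a median log2 fold change of −0.02.

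Surface receptors for uptake moved in both directions. Of 29 scavenger, C-type lectin and Fc receptors 5 rose and 3 fell. Clec4e (Mincle), a lectin for mycobacterial glycolipid, went from 930.2 and 2533 to 29662 and 55186 (log2 fold change 4.61, SE 0.49, DESeq2 adjusted p 3.05e-18), and the oxidised-lipoprotein receptor gene Olr1 rose by 3.43. The inhibitory Fc receptor gene Fcgr2b rose by 2.58 as the activating Fcgr3 fell by 1.11. Mertk, the receptor for apoptotic cells, went from 668 and 1196 to 239 and 269.7 (−1.87, SE 0.53, adjusted p 0.00788), and its ligand gene Gas6 fell by 1.64. The 3 falls did not pass without single libraries. For Mertk the adjusted p was 0.331 without 0 h replicate 2, 0.0876 without 6 h replicate 1 and 0.0708 without 6 h replicate 2. Without 0 h replicate 1, 0 h replicate 2 and 6 h replicate 2 in turn it was 0.175, 0.0652 and 0.202 for Fcgr3 and 0.0593, 0.0523 and 0.0816 for Gas6.

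In antigen presentation 3 of 18 genes of MHC class II and costimulation rose and 0 fell, and of 20 genes of MHC class I and the immunoproteasome 0 rose and 0 fell. The class I list had a median log2 fold change of 0.45, and 7 of its members rose with the replicate block (DESeq2), 2 with the block in edgeR, and 0 by edgeR without it. The 3 that rose were the adhesion molecule gene Icam1, which went from 916 and 1027 to 6634 and 10252 (3.12, SE 0.30, adjusted p 6.18e-22), its relative Vcam1 (2.93) and Icosl (1.89), a ligand of the T cell costimulator ICOS. B2m, the light chain of class I, was abundant throughout, with 59865 and 78653 at 0 h and 67491 and 99564 at 6 h (0.27, adjusted p 0.973).

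Of 34 genes of cholesterol synthesis, uptake and efflux 1 rose and 3 fell, and of 40 lysosomal genes 0 rose and 2 fell, with a median log2 fold change of −0.25 and 32 of 40 negative. These counts stand beside 4.27% higher and 2.81% lower over all genes tested, and by edgeR 1 rose and 1 fell in the first list and 0 rose and 1 fell in the second. Ch25h, which makes the antiviral oxysterol 25-hydroxycholesterol, went from 238 and 183 to 962 and 1569.6 (2.59, SE 0.36, DESeq2 adjusted p 7.48e-11). Pparg, the lipid-sensing nuclear receptor, went from 497 and 412 to 166 and 77.3 (−1.91, SE 0.43, adjusted p 0.000269), and Sgsh, a lysosomal heparan sulfatase, from 498 and 685 to 137 and 107 (−2.28, SE 0.35). Both had all stimulated values below all unstimulated ones. The falls of Dhcr7 (−1.67), of cholesterol synthesis, Soat1 (−0.83), of cholesterol storage, and the lysosomal lipase gene Lipa (−1.05) had adjusted p of 0.0238, 0.0147 and 0.0261. These became 0.371, 0.113 and 0.185 without 0 h replicate 1, 0.15, 0.36 and 0.293 without 0 h replicate 2, and 0.539, 0.393 and 0.446 without 6 h replicate 2, and that of Soat1 was 0.106 without 6 h replicate 1. Among 18 complement genes, 1 fell, the C5a receptor gene C5ar2 (−2.02, adjusted p 1.37e-05).

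Cell cycle and replication genes were mostly lower at 6 h. Of 47 tested, 7 fell and 1 rose, 44 had a negative log2 fold change, and the median was −0.64. E2f2, an activator of replication genes, went from 156 and 132 to 30.4 and 15.5 (−2.68, SE 0.49, DESeq2 adjusted p 2.96e-06). Ccnd1, the cyclin that M-CSF induces in G1, went from 4695 and 2311 to 1307 and 277 (−2.15, SE 0.66, adjusted p 0.0219), and the helicase subunit gene Mcm2 from 651 and 311 to 214 and 68 (−1.78, SE 0.59, adjusted p 0.0411). The gene that rose was Cdkn1a, the inhibitor p21, with 3558 and 2497 at 0 h and 6497 and 5048 at 6 h (0.93, adjusted p 0.024). Mki67, a marker of cycling cells, had 443 and 309 against 407 and 294 (−0.10, adjusted p 0.995). As with the interferon-stimulated genes, the replicates differed at both times, here with 43 of 47 lower in replicate 2, beside 4603 of the 11633 genes tested. The summed counts were 32195 and 19316 at 0 h and 21400 and 13338 at 6 h. With the replicate block 17 fell (DESeq2), with edgeR 2, and 2 without 0 h replicate 1 or without 6 h replicate 2. The adjusted p of Ccnd1 was 0.515 and 0.313 without those libraries in turn, that of Mcm2 0.737 and 0.559, and that of Cdkn1a 0.443 without 0 h replicate 2 and 0.328 without 6 h replicate 1, and 0.0824 without 6 h replicate 2. In bulk RNA, fewer cycling cells and less RNA per cell cannot be told apart.

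The genes nearest to the function of TDG are those of base excision repair and of DNA methylation. Of 24 base excision repair genes 0 rose and 2 fell, with a median log2 fold change of −0.43 and 21 negative, beside 2.81% lower and 5811 of 11633 negative over all genes tested. The 2 were Pcna, the sliding clamp of DNA polymerases (4632 and 3904 to 2193 and 1930, log2 fold change −1.05, DESeq2 adjusted p 0.000715), and the strand-break sensor gene Parp1 (−0.82, adjusted p 0.0254). Neither passed without 0 h replicate 1 (0.113 and 0.266) or without 6 h replicate 2 (0.132 and 0.529), nor did Parp1 without 0 h replicate 2 (0.343) or 6 h replicate 1 (0.116). Among 20 DNA methylation writers, readers and TET enzymes 2 rose (10%) and 1 fell (5%), beside 4.27% and 2.81% of all genes tested. Tet2 (chromosome 3, 133126643 to 133207354, mm9), the dioxygenase that makes the substrates of TDG, went from 428 and 543 to 1086 and 1206 (1.24, SE 0.29, adjusted p 0.000784), with an adjusted p of 0.0965 without 0 h replicate 1 and 0.0966 without 6 h replicate 2. Dnmt1 (chromosome 9, 20711650 to 20757317), the maintenance methyltransferase, went from 1378 and 1751 to 556 and 629 (−1.40, SE 0.30, adjusted p 0.000103). Its replicates lay close together, and its call held without each library in turn. The other gene that rose was Apobec3, an antiviral cytidine deaminase (1.21, adjusted p 0.0417), whose adjusted p was 0.4, 0.175 and 0.657 without 0 h replicate 1, 0 h replicate 2 and 6 h replicate 2 in turn. Of 25 p53 and DNA damage targets 2 rose (8%), Cdkn1a and Fas, and 1 fell (4%), near the shares of all genes tested. The gene that fell was Sesn1 (−1.66, DESeq2 adjusted p 0.0258), a stress-induced regulator of mTORC1, which did not pass without 0 h replicate 1 or without 6 h replicate 2.

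The 12 largest falls were led by Nanos1 (chromosome 19, 60831890 to 60835816, mm9), an RNA-binding regulator of translation, which went from 135 and 77.4 to 6.07 and 0.773 (log2 fold change −5.14, SE 0.78, DESeq2 adjusted p 6.58e-09). Eps8 (chromosome 6, 137425766 to 137603397), an actin-capping adaptor, went from 553 and 457 to 38.9 and 20.1 (−4.12, SE 0.52), and Rnf150, a RING finger protein gene, from 781 and 1099 to 69.2 and 41 (−4.11, SE 0.43). In each the higher stimulated library was far below the lower unstimulated one. A lack of overlap was required of all 12 by the rule that chose them. Log2 fold changes were −3.91 for the sialyltransferase gene St6gal1, −3.89 for the laminin gene Lama3 and −3.37 for the focal adhesion gene Tns1. Changes from −3.39 to −3.06 were found for Nxpe5, Ccsap, Fam198b, Angptl2, Gpr155 and Arhgap19, the last of which went from 2158 and 2276 to 352 and 180.1. All 12 passed without each library in turn and by edgeR.

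Most genes that changed were in none of the lists. The lists held 105 of the 497 genes that rose and 34 of the 327 that fell, beside 674 of the 11633 tested. Genes that fell were longer, with a median of 4670 exonic bases beside 3540 for genes that rose and 3701 for all tested genes with a length. Over the 10913 genes with a length (93.8%) the Spearman correlation of the log2 fold change with exonic length was −0.0673 in TDG iKO (−0.0368 in pair 1 and −0.089 in pair 2) and 0.242 in WT, with no test. The part of length in the results was not tested.

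The 6 genes next to enhancers that the study had selected in these kinds of samples are not independent evidence of a direction. Il1b, Il6, Ptgs2 and Batf rose, as given above. Alcam, an adhesion molecule of leukocytes, had 1661 and 2100.3 at 0 h and 1442 and 3193 at 6 h, with overlapping libraries and pairs of opposite sign (log2 fold change 0.30, DESeq2 adjusted p 0.98). Mdfic had 2895 and 3358 against 2913 and 4136 (0.17, adjusted p 0.995).

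The question whether macrophages without TDG respond differently from WT was addressed by the difference of the KLA responses in 1 model. No gene of 15026 passed (0%, DESeq2 interaction test, adjusted p under 0.05), with 37 at an unadjusted p under 0.05, and none by edgeR (24 unadjusted) or with the replicate block (213 unadjusted). All 497 genes that rose and all 327 that fell had the same sign in WT, against 72.9% of all genes tested, and 441 and 230 of them also passed in WT. WT medians were 2.01 and −1.50. Over the 11633 genes the log2 fold changes of the genotypes, which share no library, had a Pearson correlation of 0.766, and those of TDG iKO and the WT BMDMs of the TET cohort one of 0.8. The replicate difference at 6 h also ran together in both genotypes (Pearson correlation 0.639 across genes), and what same-numbered libraries of the genotypes share was not tested.

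Intervals of the difference show how much could have gone unseen with 2 libraries a group. For Ptgs2 the TDG iKO response minus the WT response was 0.57 on the log2 scale (95% interval −0.60 to 1.73), for Tnf it was 0.13 (−0.63 to 0.88), for Ccl3 0.31 (−0.52 to 1.15) and for Slc7a11 0.03 (−0.81 to 0.88). Each of these intervals spans 0 and differences in both directions. For Il6 it was −1.40 (−4.05 to 1.24) and for Nos2 −1.74 (−6.06 to 2.58), which leaves room for large differences. Lipg, an endothelial-type lipase gene with 1 of the smallest interaction p (0.0104, unadjusted), went from 20.2 and 84.4 to 111 and 269 in TDG iKO, a log2 fold change of 1.85 against 4.79 in WT, a difference of −2.94 (−5.19 to −0.69). Leaving out WT 0 h replicate 1 gave 245 genes past the threshold in the interaction, with the WT 0 h group then resting on the library of 4982950 counts, and leaving out any other library gave 0.

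**Figure D5:**
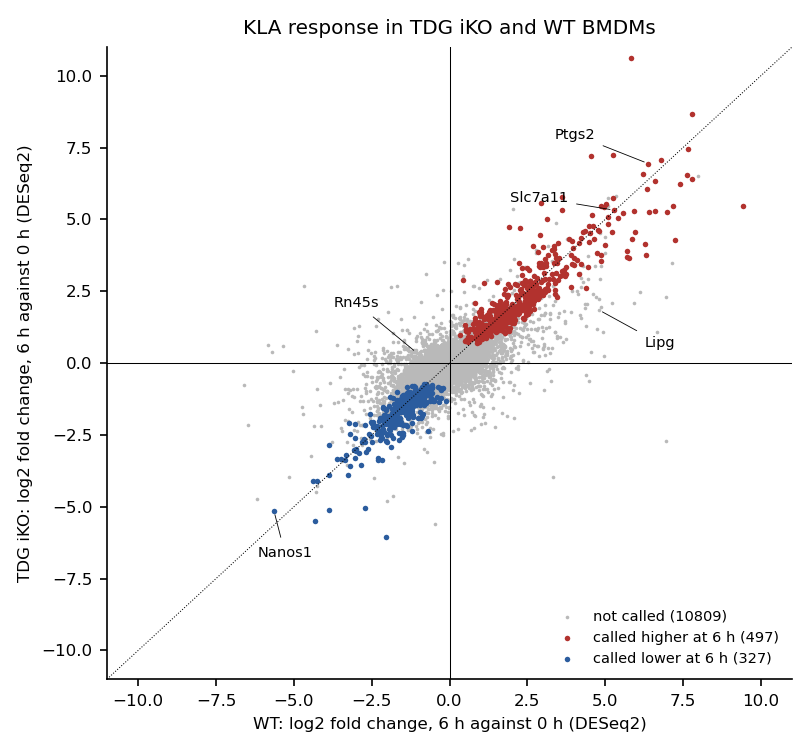
Log2 fold change after 6 h of KLA in WT (x axis) and in TDG iKO BMDMs (y axis) for the 11633 genes tested, with genes that rose or fell in TDG iKO coloured and the line of equal response drawn. All 824 coloured points have the same sign on both axes, and no gene differed past the threshold.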

How the data were processed

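Polyadenylated RNA of BMDMs was sequenced from directional paired-end libraries. HISAT2 was used by the authors for alignment to mm9, and they deposited raw HTSeq-count read counts for 23420 gene symbols, and the submitters' processing notes also name DESeq2 1.30.0. Tool versions of the aligner and counter, the annotation and the strand setting are not given in the sources used here.

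Groups and replicate numbers came from the labels. The 8 BMDM libraries of the Tdg cohort (4 groups of 2) were fitted together with DESeq2 1.42.0 in R 4.3.3, using median-of-ratios size factors, the Wald test, unshrunken log2 fold changes and Benjamini-Hochberg adjustment with a threshold of 0.05. The response of TDG iKO against that of WT was tested as an interaction. Log2 changes of same-numbered pairs used a pseudocount of 1. The labels do not say that same-numbered libraries share an animal, and the deviations of same-numbered TDG iKO libraries from their group means correlated at 0.708 across genes. Alternatives were edgeR 4.0.16, TMM factors, a filter of 10 counts in 2 libraries, the replicate block nested in genotype with either tool, a fit of the 4 TDG iKO libraries, a fit of 16 BMDM libraries, a 2-fold minimum and leaving out each library. Both tests were tested on simulated data, in which DESeq2 called a larger share of unchanged genes than its threshold allows. The simulated libraries were drawn independently, without the shared deviations of same-numbered libraries, so they do not show how the tests behave with those.

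The genes and lists were chosen with earlier results of these data known. The 137 named genes were fixed names, the 12 largest increases and 12 largest decreases past the threshold with a mean of at least 50 normalised counts, no overlap between the times and the same sign in both pairs, up to 3 in each direction per list by size (or the 2 most abundant members where none passed), the 3 smallest interaction p and 6 genes next to selected enhancers. 1 of these genes is not reported here. Positions are from GENCODE M1 (mm9) and promoters from RefSeq (GRCm38.p6), and positions were found for 133 genes. Intervals and floors of counts cover counting error only.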

Additional observations from a re-analysis of the deposited data

Results flagged for a closer look

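The pairs of the ribosomal RNA gene Rn45s changed in opposite directions in the 2 genotypes, but in TDG iKO it did not pass and its libraries overlapped (log2 fold change 0.35, DESeq2 adjusted p 0.908). In TDG iKO it had 19304 and 16972 normalised counts at 0 h and 28045 and 18245 at 6 h, and its pairs changed by 0.54 and 0.10 on the log2 scale, while the WT pairs changed by −1.14 and −0.99. The difference of the responses was 1.40 on the log2 scale (95% interval 0.38 to 2.42), and its p of 0.00734 before adjustment became 1 after it (DESeq2), so it did not pass the interaction test. Rn45s took 0.148% to 0.268% of the counts of the TDG iKO libraries. In WT it took 0.44% and 0.554% at 0 h and 0.184% and 0.266% at 6 h, so the WT 0 h libraries stood highest.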

How the results depend on the processing

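The 824 genes became 346 by edgeR, 1312 with the replicate block nested in genotype and 1665 in the fit of all 16 BMDM libraries, and lay between 376 (without 6 h replicate 2) and 700 (without 6 h replicate 1) when a TDG iKO library was left out. Without 0 h replicate 2 the share of higher genes among those that passed was 73.7%, against 60.3%. TMM factors gave 812, the filter on low counts 844, edgeR with the block 1150, the 4 TDG iKO libraries alone 880 and the 2-fold minimum 755. The interaction count was 0 in the main test and the other settings except without WT 0 h replicate 1, and ranged from 0 to 245 over libraries left out. No named gene changed direction past the threshold in any setting. Of the 137 named genes, 29 lost their call by edgeR, 23 without 0 h replicate 1, 21 without 0 h replicate 2, 12 without 6 h replicate 1 and 32 without 6 h replicate 2. The replicate block raised 4 named genes past the threshold, Ccl5, Ifit1, the scavenger receptor gene Marco (adjusted p 0.0071) and Lipg (0.00106), and changed no other call among the 137. With the block in edgeR, 2 of them passed, Ifit1 (0.00203) and Lipg (0.0225), and Ccl5 (0.0526) and Marco (0.0568) did not. With 2 libraries a group, leaving 1 out assumes that the lone library varies like the other groups. Genes with few counts at 0 h, such as Shisa3 and Itgb8, are limited by depth in the size of their change.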
